A study of Mus musculus with 4 samples.

Results

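The adrenergic receptors are the G-protein coupled receptors for noradrenaline and adrenaline. Here they are the 6 listed genes Adra1a, Adra1b, Adra1d, Adra2a, Adra2c and Adrb1, followed across the cells of the mouse ventromedial prefrontal cortex (vmPFC). They were chosen by name and make up 6 of the 31053 mouse genes in the count matrices. The cells came from male C57BL/6 mice, 8 weeks old when injected, in which 5 targets of the vmPFC had been injected on 1 side with retrograde rAAV-EGFP-BARCODE virus: the agranular insular cortex, dorsomedial striatum, mediodorsal thalamus, basolateral amygdala and lateral hypothalamus. The vmPFC was dissected some weeks after injection, so the mice were older than this by then, and 10x Genomics 3' libraries were made from 3 unsorted mice, 1 library each, and from 1 pool of 3 further mice whose EGFP-positive cells had been sorted. No uninjected or untreated mice were among the samples. The virus enters at axon terminals, so its signal marks neurons it reached and not every neuron of a projection.

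Noradrenaline reaches the prefrontal cortex in axons of the locus coeruleus. The alpha-1 receptors (Adra1a, Adra1b, Adra1d) couple to Gq and phospholipase C, the alpha-2 receptors (Adra2a, Adra2c) to Gi and a fall in cyclic AMP, and the beta-1 receptor (Adrb1) to Gs and a rise in cyclic AMP. In the prefrontal cortex alpha-2A receptors are known for their part in working memory at moderate noradrenaline release, and alpha-1 and beta-1 receptors for their engagement at higher release.

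The deposited neuron metadata named 9368 excitatory neurons of 7 subtypes, 7765 of them in the unsorted libraries. The gene in each subtype's name had its highest level in that subtype for 7 of 7 names. Inhibitory neurons (4 or more UMIs of Gad1 and Gad2 together and at most 3 of Slc17a7), astrocytes (3 or more of Aqp4 and Gja1) and microglia (4 or more of Cx3cr1 and P2ry12) were taken from the cells outside that metadata. They numbered 1211, 465 and 2896 unsorted cells, and every further marker of these classes that was checked was highest in its own class. Levels are given in CPM, the usual scaling of the UMIs of a gene to all UMIs summed from the cells of a group in a library, as mean ± SD over the 3 unsorted libraries (n = 3). The median unsorted excitatory neuron held 22251 UMIs, against 13450 for inhibitory neurons, 3414 for astrocytes and 4324.5 for microglia. The sorted library held 1603 annotated neurons at a median of 31669 UMIs and is given as 1 value with an exact 95% Poisson interval. Intervals and floors cover counting error only. UMIs were counted near transcript 3' ends, so levels are compared between cell groups within a gene and not between genes.

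The sequence upstream of the start site is shown for Adra1b and Adrb1, the members whose level in the L2/3-Rorb subtype lay above that in all other subtypes in every unsorted library. RefSeq start sites (GRCm38.p6) were given for 4 of the 6 members, and the 250 bases before the start are printed 5′ to 3′ on the strand of the gene. Capitals mark matches to the motif CCAAT. This motif is read as ATTGG when it lies on the opposite strand. Matches to the GGGCGG motif, known as the GC box, are in capitals too, and those on the opposite strand are read as CCGCCC. Both strands were searched for these and for TATAAA. Adra1b has 2 listed start sites, and the upstream one is shown. The 250 bases before the other start had a GC content of 72.8%. The Adra1b sequence is chr11:43901238-43901487 on the minus strand, and the Adrb1 sequence is chr19:56721867-56722116 on the plus strand.
Adra1b: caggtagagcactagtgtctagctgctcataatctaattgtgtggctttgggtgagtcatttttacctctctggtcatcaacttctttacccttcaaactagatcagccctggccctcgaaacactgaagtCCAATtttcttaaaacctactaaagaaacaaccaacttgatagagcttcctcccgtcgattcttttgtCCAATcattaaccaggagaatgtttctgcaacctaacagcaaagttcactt
Adrb1: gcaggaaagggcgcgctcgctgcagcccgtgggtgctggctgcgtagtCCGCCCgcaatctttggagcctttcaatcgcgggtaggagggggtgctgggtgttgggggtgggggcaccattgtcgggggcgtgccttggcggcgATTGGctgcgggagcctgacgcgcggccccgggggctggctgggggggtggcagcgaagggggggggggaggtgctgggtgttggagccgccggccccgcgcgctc
The Adra1b sequence had a GC content of 41.6% and held 2 CCAAT matches, no GC box and no TATAAA. The Adrb1 sequence had a GC content of 74.0% and held 1 ATTGG, 1 CCGCCC and no TATAAA. Over 32851 promoters of the same length the median GC content was 52.4%, 33.8% held CCAAT, 32.7% the GC box and 12.4% TATAAA on either strand. A match is a run of letters and not a shown binding site.

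Adra1a (ENSMUSG00000045875, chr14:66635251-66771168, plus strand, GRCm38; 3 exons in its longest coding transcript) was highest in deep-layer subtypes and low in L2/3 and in L5-S100b. In L5-Bcl6 it stood at 21.3, 29.8 and 16.7 CPM in the 3 unsorted libraries (22.6 ± 6.65), in L6-Npy at 19.1, 17.0 and 18.5 CPM, and in L6-Syt6 at 15.0, 14.4 and 13.5 CPM. The L5-Bcl6 and L6-Npy values overlapped, and L6-Npy lay above L6-Syt6 in every library. L5-Htr2c followed at 10.7 ± 1.89 CPM. L5-S100b (4.17 ± 0.93), L2/3-Calb1 (2.96 ± 0.78) and L2/3-Rorb (2.55 ± 1.12) overlapped each other at the bottom of the order, 8.85-fold below the top for the lowest. An Adra1a UMI was found in 37.8% ± 8.84 of L5-Bcl6 cells and in 25.7% ± 0.52 of L6-Syt6 cells.

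Adra1b (ENSMUSG00000050541, chr11:43774606-43901210, minus strand; 5 exons) was highest in L2/3-Rorb, at 42.5, 48.1 and 44.0 CPM (44.9 ± 2.88). L6-Npy (23.3 ± 3.43), L5-S100b (20.5 ± 1.91) and L6-Syt6 (18.6 ± 1.61) overlapped one after another in a middle band. L5-Htr2c (5.12 ± 1.24), L2/3-Calb1 (2.80 ± 1.94) and L5-Bcl6 (2.60 ± 0.87) lay below that band in every library, so the top subtype was 17.3-fold above the lowest. An Adra1b UMI was found in 55.6% ± 0.60 of L2/3-Rorb cells at a median of 21618 UMIs, and in 1.28% ± 0.48 of microglia at a median of 4324.5 UMIs. At 2000 UMIs drawn per cell the shares were 8.30% and 0.219%.

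Markers of inhibitory neurons, in which Adra1b was higher still, were also highest in L2/3-Rorb among the subtypes. All 6 listed inhibitory markers were detected there, with a summed level of 21.7 CPM against 2.67 to 14.5 CPM in the other subtypes. In inhibitory neurons themselves the summed level was 3385 CPM. Gad1 stood at 7.16 CPM in L2/3-Rorb and at 1062 CPM in inhibitory neurons, while the Adra1b levels of these groups were 44.9 and 90.2 CPM. The part of these markers in the Adra1b level was not tested.

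Adra1d (ENSMUSG00000027335, chr2:131545850-131562283, minus strand; 2 exons) was barely detected. It gave 19 UMIs in the 7765 unsorted excitatory neurons, of which 7 fell in L2/3-Rorb and 7 in L5-S100b. Its level in L2/3-Rorb was 0.450, 0.549 and 0.670 CPM. No UMI was counted in L2/3-Calb1 or L6-Npy, nor in inhibitory neurons, where a count of 0 allows up to 0.171 CPM. The gene overlaps Gm14285, an antisense gene on the opposite strand. Its order over subtypes was not detectable at this depth.

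Adra2a (ENSMUSG00000033717, chr19:54044151-54048982, plus strand; 1 exon) was highest in L6-Syt6, at 12.1, 12.5 and 11.6 CPM (12.0 ± 0.44). L5-Bcl6 came next at 9.27 ± 1.40 CPM, with its highest library at 10.8 CPM, below every L6-Syt6 value. L2/3-Calb1 (4.63 ± 2.04), L6-Npy (4.44 ± 0.49) and L2/3-Rorb (3.31 ± 1.54) overlapped. L5-S100b was at 0.770 ± 0.31 CPM, and L5-Htr2c held 1 UMI in 317 cells. The pooled level in L6-Syt6 was 56.4-fold that in L5-Htr2c, with an exact counting interval of 10.1 to 2229. An Adra2a UMI was found in 20.2% ± 0.42 of L6-Syt6 cells and in 1.80% ± 0.65 of L5-S100b cells.

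Adra2c (ENSMUSG00000045318, chr5:35278319-35281763, plus strand; 1 exon), the other Gi-coupled member, had a different order. It stood at 37.5, 43.8 and 29.0 CPM in L2/3-Calb1 (36.8 ± 7.4), at 30.5 ± 2.10 in L5-Bcl6 and at 29.3 ± 1.84 in L5-S100b, and these overlapped. L2/3-Rorb (16.9 ± 2.43) and L6-Npy (16.3 ± 1.57) overlapped at about the middle of the order. L6-Syt6 (9.18 ± 0.56) lay below those subtypes, and L5-Htr2c lay below all, at 1.16, 1.40 and 1.30 CPM from 6 UMIs in all.

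Adrb1 (ENSMUSG00000035283, chr19:56722199-56733113, plus strand; 1 exon), the only member that couples to Gs, was high in every subtype but L6-Syt6. In L6-Syt6 it stood at 11.1, 11.9 and 11.7 CPM (11.5 ± 0.42). In L2/3-Rorb it stood at 70.9, 58.2 and 65.9 CPM (65.0 ± 6.36), 5.63-fold above L6-Syt6. The other 5 subtypes lay between 46.1 ± 3.07 (L5-Htr2c) and 55.5 ± 0.43 CPM (L5-S100b), each overlapping its neighbour in the order, although L5-S100b lay above L5-Bcl6 and L5-Htr2c in every library. The highest L2/3-Calb1 library was at 58.1 CPM, just under the lowest L2/3-Rorb library. An Adrb1 UMI was found in 70.0% ± 2.93 of L2/3-Rorb cells, 20.5% ± 0.72 of L6-Syt6 cells and 0.964% ± 0.29 of oligodendrocytes, whose median depth was 4789 UMIs.

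**Figure D1:**
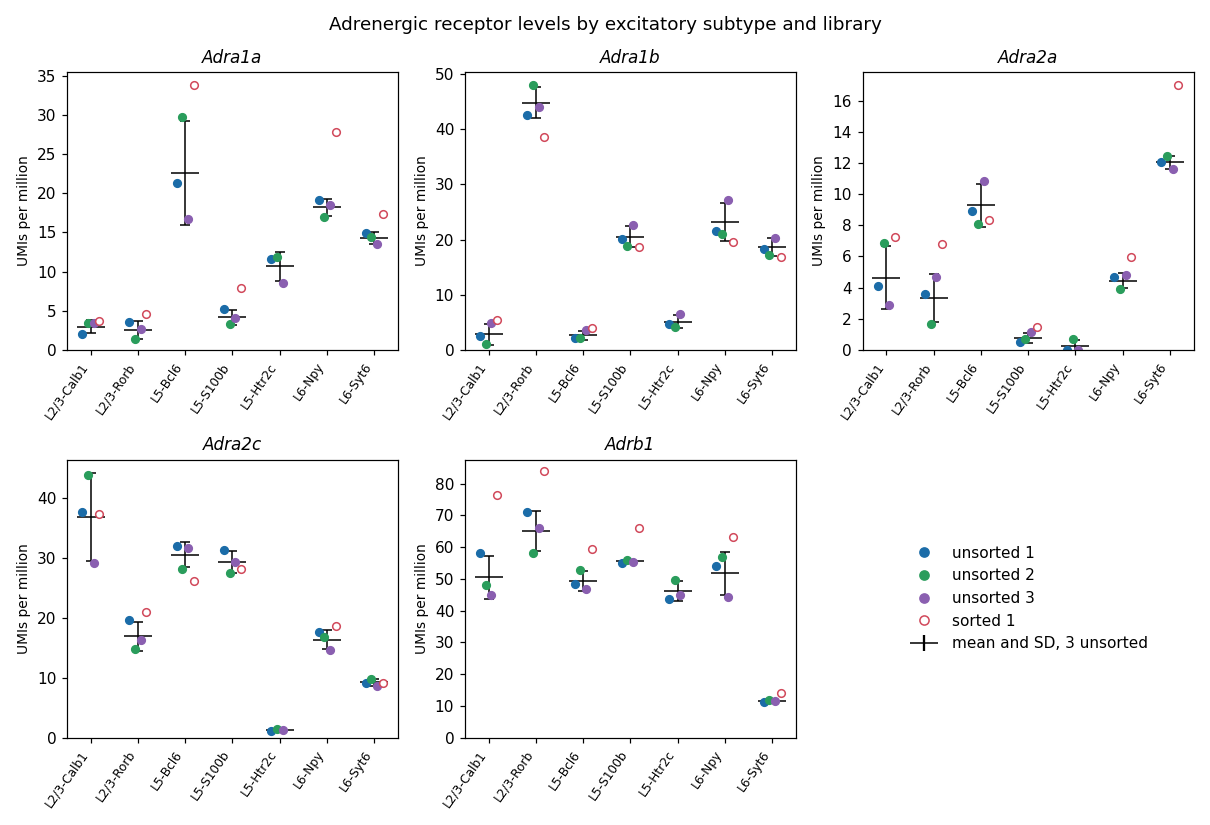
Level of 5 members in CPM (vertical axis, linear) in each excitatory subtype (horizontal axis). Filled points are the 3 unsorted libraries, the open red point is the sorted library (left out for L5-Htr2c, with 4 sorted cells), and black marks are the mean and SD of the unsorted libraries. Adrb1 in L6-Syt6 lies at 11.1 to 11.9 with no other unsorted value under 43.7, Adra1b has a single high subtype, and Adra2c is at 1.16 to 1.40 in L5-Htr2c.

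Of the 5 members that reached 10 CPM in a subtype, 3 (Adra1b, Adra2a and Adrb1) had a highest subtype whose libraries all lay above those of every other subtype, against 39% of 10089 genes at that level. For 2 of the 5 (Adra2c and Adrb1) the lowest subtype lay below all others, against 28.8% of those genes. The subtypes were made by the authors from the expression of these cells, so these levels and orders are a description.

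Single cells differed in how many members they showed. No member was detected in 9.82% ± 0.79 of L2/3-Rorb cells, 28.5% ± 1.56 of L6-Syt6 cells and 44.3% ± 5.35 of L5-Htr2c cells, the last at the lowest median depth of the subtypes, 14549 UMIs. Exactly 2 members were detected in 40.2% ± 1.47 of L2/3-Rorb cells and in 7.80% ± 1.5 of L5-Htr2c cells. Summed over the members, the level was 133 ± 8.00 CPM in L2/3-Rorb, 65.7 ± 0.14 in L6-Syt6 and 63.6 ± 3.56 in L5-Htr2c. Over the 21 sums of 7 subtypes in 3 libraries, which share libraries, the log2 levels of member pairs correlated between r = −0.49 (Adra2a with Adrb1) and r = 0.44 (Adra2a with Adra2c).

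Within a layer the paired subtypes stood furthest apart, by log2 fold change among the tested members, in Adra1b in L2/3, in Adra2a and then Adra1b in L5, and in Adrb1 in L6. The comparisons used edgeR's quasi-likelihood test on sums per library, with Benjamini-Hochberg adjustment over all genes. A gene was called where the adjusted p was below 0.05 and the log2 difference was 0.5 or more in either direction. Because clustering had used these cells, the tests measure how far apart the clusters are and do not stand as independent evidence that they differ.

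In L2/3-Rorb against L2/3-Calb1, 2 of the 4 tested members were called, against 22% of all genes tested. Adra1b was higher in L2/3-Rorb by 4.00 on the log2 scale (SE 0.23, edgeR adjusted p = 6.86e-21), from 44.9 ± 2.88 against 2.80 ± 1.94 CPM. Adra2c was lower by a log2 fold change of −1.08 (SE 0.15, edgeR adjusted p = 1.33e-08). Adrb1 was 0.39 higher in 3 of 3 libraries, under the size limit, with an edgeR adjusted p of 0.000687. Adra2a was at −0.42 with overlapping libraries, and Adra1a and Adra1d were too low to be tested.

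In L5-S100b against L5-Bcl6, 3 of 5 tested members were called, against 21.6% of all genes. Adra1b was higher in L5-S100b by 3.01 (SE 0.24, edgeR adjusted p = 1.33e-33), while Adra1a was lower at −2.40 (SE 0.19, edgeR adjusted p = 1.94e-36). These Gq-coupled members differed in opposite directions, with no overlap between libraries for either gene. Adra2a was lower at −3.57 (SE 0.35, edgeR adjusted p = 6.96e-23), from 0.770 against 9.27 CPM. Adra2c (−0.05) and Adrb1 (0.18) did not pass.

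In L6-Npy against L6-Syt6, 3 of 5 tested members were called, against 31.1% of all genes. Adrb1 was higher in L6-Npy by 2.11 (SE 0.07, edgeR adjusted p = 1.52e-36), from 54.1, 56.9 and 44.2 CPM against 11.1, 11.9 and 11.7 CPM. Adra2c was also higher, by 0.78, and Adra2a was lower at −1.49 (SE 0.15, edgeR adjusted p = 3.54e-14). Adra1a (0.30) and Adra1b (0.27) were higher in 3 of 3 libraries at edgeR adjusted p of 0.00471 and 0.00428 but stayed under the size limit.

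**Figure D2:**
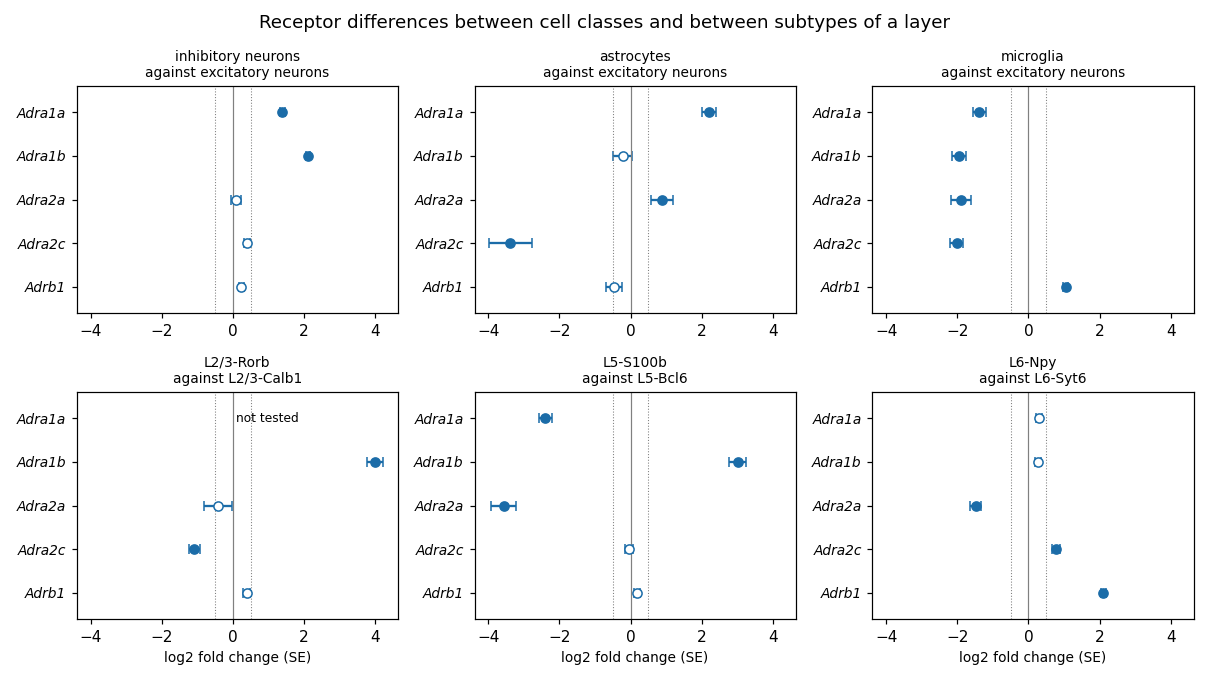
Log2 fold change (horizontal axis) with its standard error for 5 members in the 3 class comparisons (top) and the 3 comparisons of subtypes within a layer (bottom). Filled points were called, open points were not, and dotted lines mark 0.5 on either side of 0. Adra1b lies at 4.00 and 3.01 in the L2/3 and L5 panels and Adrb1 at 2.11 in the L6 panel.

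Inhibitory neurons, astrocytes and microglia were each compared with all excitatory neurons. This pool held 4319 L6-Syt6 cells among its 7765 cells, so a class can stand above the pool and below single subtypes. The 3 class comparisons used the same sums of all excitatory neurons, so they are given side by side and not compared with each other. Adra1d was too low to be tested in any of them.

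In inhibitory neurons Adra1a and Adra1b were higher. Adra1b stood at 80.3, 99.1 and 91.2 CPM in inhibitory against 19.0, 18.3 and 21.7 CPM in excitatory neurons, and Adra1a at 35.7, 35.5 and 29.9 against 12.7, 12.3 and 11.4 CPM. Neither gene overlapped between the classes. The log2 fold changes were 2.12 for Adra1b (SE 0.06, edgeR adjusted p = 3.25e-30) and 1.40 for Adra1a (SE 0.08, edgeR adjusted p = 2.42e-20). These were 2 of 5 tested members, against 39% of all genes tested. Adra2c (0.41) and Adrb1 (0.23) were higher in 3 of 3 libraries with edgeR adjusted p of 3.68e-05 and 0.00348 but under the size limit, and Adra2a (0.09) overlapped.

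In astrocytes Adra1a stood at 52.1, 69.1 and 58.0 CPM, above the 3 excitatory values (log2 fold change 2.21, SE 0.19, edgeR adjusted p = 4.27e-10). Adra2a stood at 23.5, 11.2 and 14.2 CPM against 8.12, 8.43 and 8.12 CPM (0.87, SE 0.31, edgeR adjusted p = 0.0163). The Adra2a call rested on the first library, since without it the log2 fold change was 0.53 at an adjusted p of 0.271, in a range of 0.00493 to 0.271 over the 11 alternatives. Adra2c gave 3 UMIs in 465 astrocytes, and its pooled level in excitatory neurons was 9.79-fold higher (exact counting interval 3.35 to 47.5). Adra2c was called lower, so 3 of 5 tested members were called, against 57.5% of all genes. Adra1b (−0.22) did not pass, nor did Adrb1 (−0.46, edgeR adjusted p = 0.0785, in a range of 0.00195 to 0.382 over the alternatives).

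In microglia Adrb1 stood at 46.5, 42.9 and 37.6 CPM against 30.9, 30.0 and 29.2 CPM in excitatory neurons (log2 fold change 1.04, SE 0.07, edgeR adjusted p = 1.68e-13), with no overlap. Among single subtypes, the microglial mean of 42.4 CPM was above that of L6-Syt6 only (11.5 CPM). The means of the other subtypes were 46.1 to 65.0 CPM, and the L5-Htr2c libraries overlapped those of microglia. The other tested members were lower: Adra1a at −1.38, Adra1b at −1.95, Adra2a at −1.91 and Adra2c at −2.02. All 5 tested members were called, against 69.1% of all genes. Scaling by library totals alone took Adrb1 to 0.50 and under the size limit, with the median of all genes at −0.64 in place of −0.09. That scaling also changed the split of all calls, from 5264 higher and 5451 lower genes to 3760 higher and 7883 lower.

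Excitatory transcripts were present in the classes outside the neuron metadata. Slc17a7 stood at 1033 CPM in excitatory neurons, 207 in astrocytes, 176 in microglia and 11.9 in inhibitory neurons, and 11.3% of microglia held at least 1 Slc17a7 UMI. With cells of 4 or more Slc17a7 UMIs left out, Adra1a in microglia went from 3.18 to 0.323 CPM, Adra1b from 3.48 to 0.60 and Adra2c from 2.59 to 0.499, and Adra1a in astrocytes went from 59.7 to 69.4 CPM. The part of excitatory RNA in the other class levels was not tested. Among the remaining classes, oligodendrocyte precursors held Adra1a at 20.0 ± 0.90 CPM and Adrb1 at 13.2 ± 1.83 CPM. In oligodendrocytes the 5 detected members other than Adra1d lay between 0.780 and 3.71 CPM.

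Among inhibitory cells the Vip group carried most of the Adra1b. The groups were set by UMIs of Sst, Vip, Lamp5 or Pvalb after receptor levels had been seen, so they are described without a test. In Vip neurons (455 cells) Adra1b stood at 261, 274 and 248 CPM, in Lamp5 neurons (75 cells) at 63.3 ± 9.0 and in Sst neurons (363 cells) at 11.1 ± 1.33. The Vip values lay above all others, and an Adra1b UMI was found in 77.8% ± 3.70 of Vip cells. Adra1a led instead in Lamp5 neurons, at 106, 106 and 98.0 CPM, with 34.4 ± 4.82 in Vip and 21.7 ± 6.94 in Sst neurons. Adrb1 was 65.5 ± 10.8 CPM in Vip and 25.5 ± 3.16 in Sst neurons. Pvalb neurons numbered 37, and their Adra1a of 44.4 ± 17.9 CPM overlapped the Vip group. These 4 groups and the remaining inhibitory cells had no Adra1d UMI.

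**Figure D3:**
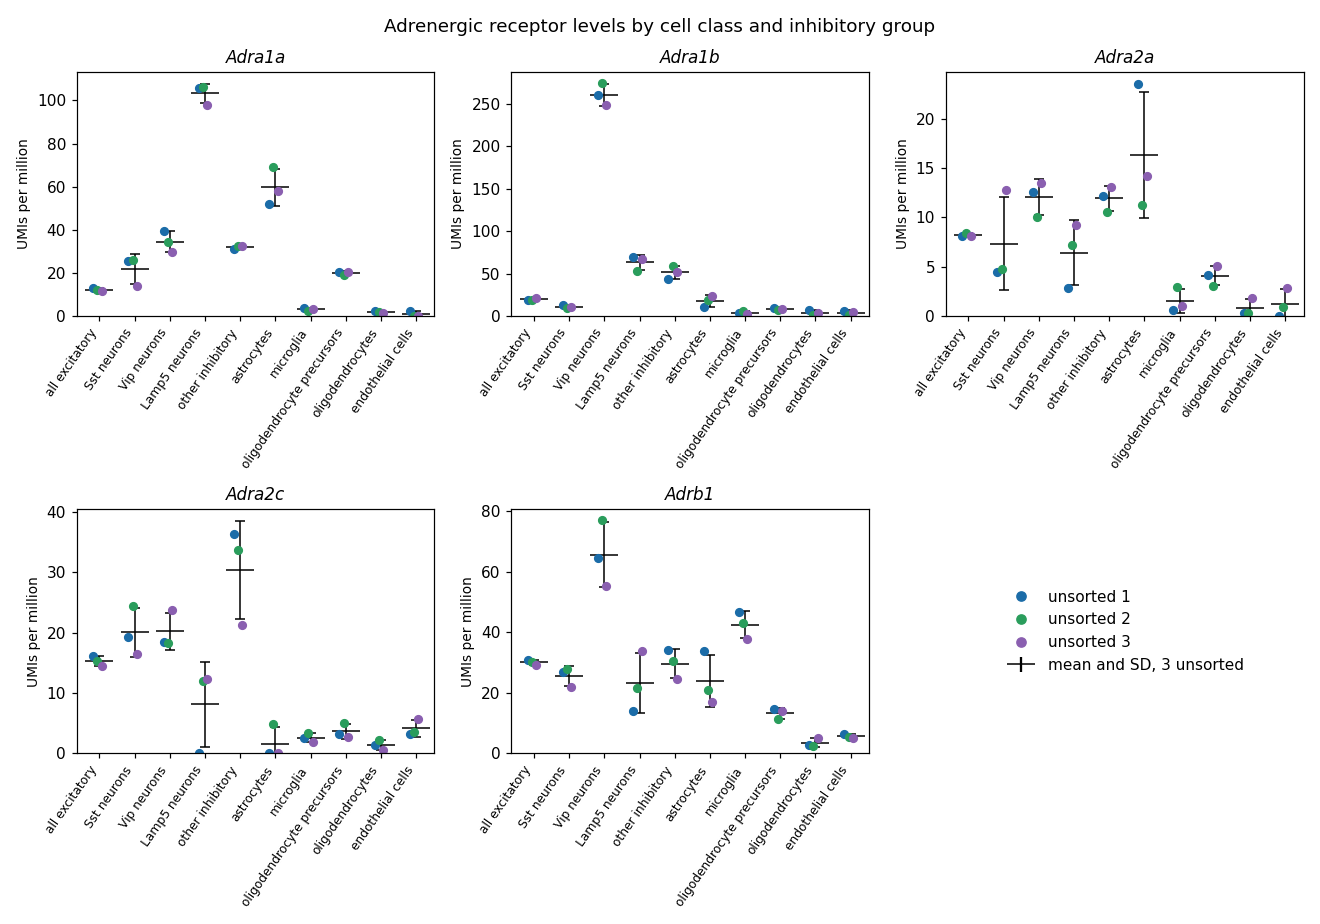
Level of 5 members in CPM (vertical axis, linear) in excitatory neurons, inhibitory groups and non-neuronal classes (horizontal axis). Points are the 3 unsorted libraries, and black marks are the mean and SD. Adra1b in Vip neurons lies at 248 to 274, Adra1a is highest in Lamp5 neurons followed by astrocytes, and Adrb1 in microglia lies at 37.6 to 46.5.

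Further receptor genes of the family were also examined. Adrb3 was found mainly in L2/3-Calb1 (9.48 ± 3.61) and L2/3-Rorb (8.31 ± 0.59), and overlaps the antisense gene Gm45470. Adra2b gave 3 UMIs in all unsorted excitatory neurons.

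A list of 57 genes of noradrenergic signalling, in 7 groups, was set beside the receptors. In inhibitory neurons 7 were called higher and 15 lower of 53 tested (41.5%, near the 39% of all genes), with a median log2 fold change of −0.11 against −0.01 for all genes. Prkca, a protein kinase C, was higher by 1.33, and Rgs4 and Rgs14, which speed the shut-off of G proteins, were lower at −2.43 and −5.61. Maob, an enzyme of monoamine breakdown, was lower at −4.27, and Slc29a4, a monoamine transporter, was higher by 2.19. Th, the rate-limiting enzyme of catecholamine synthesis, stood at 2.94 ± 0.97 CPM in inhibitory and 0.00591 ± 0.01 CPM in excitatory neurons.

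In astrocytes 8 were higher and 33 lower of 52 tested (78.8%, against 57.5% of all genes, with a median of −1.24 against −0.19), and in microglia 7 were higher and 37 lower of 53 (83%, against 69.1% of all genes, with a median of −1.47 against −0.09). Plcb3, a phospholipase C that receptors of the Gq class activate, was higher in astrocytes by 6.11 and in microglia by 7.05. The receptor kinase Grk3 and the G protein subunit Gnao1 were higher in astrocytes by 2.02 and 1.64, and Cacna1c and Prkce were lower at −2.79 and −2.64. In microglia the arrestin Arrb2 and the Gi subunit Gnai2 were higher by 3.35 and 2.88, and Gnai1 and Gnal were lower at −1.99 and −1.98.

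Between subtypes of a layer the called share of the list is given beside that of all genes, and the difference between these shares was not tested. L2/3-Rorb against L2/3-Calb1 gave 12 higher and 7 lower of 49 (38.8%, against 22% of all genes, median 0.16), among them Maob at 3.54, the receptor kinase Grk5 at 2.89 and Rgs4 at 1.85, with the adenylyl cyclase Adcy9 at −1.43, Rgs14 at −1.30 and Prkca at −1.16. L5-S100b against L5-Bcl6 gave 11 higher and 7 lower of 50 (36%, against 21.6% of all genes, median 0.08), among them Maob at 2.97, Grk5 at 1.85 and Prkca at 1.06, with Slc29a4 at −1.48 and Plcb4 at −1.33. Maob and Grk5 were called higher in the subtype with the higher Adra1b in each of these pairs, while Prkca went opposite ways. In inhibitory neurons, where Adra1b was also higher, Maob was lower at −4.27. A link of these genes to Adra1b was not tested. L6-Npy against L6-Syt6 gave 8 higher and 8 lower of 51 (31.4%, against 31.1% of all genes, median −0.11), among them Slc29a4 at 3.08, Rgs2 at 2.26 and Prkca at 1.80, with Plcb4 at −2.68, Adcy2 at −2.07 and Rgs4 at −1.10.

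The sorted library could be set beside the unsorted ones as a single value. Of 21 member and subtype pairs with at least 10 CPM, 13 lay above the 3 unsorted values, 6 below and 2 within, and 2 of these pairs rest on the 4 sorted L5-Htr2c cells. Over the pairs of all genes at that level, 49.4% lay above and 33.3% below. In L6-Syt6 the sorted Adra2a level was 17.0 CPM (15.5 to 18.6) against 11.6 to 12.5 unsorted, and Adra1a was 17.3 (15.8 to 19.0) against 13.5 to 15.0. Adra1b was 16.8 (15.3 to 18.4) against 17.2 to 20.4. In L5-Bcl6 the sorted Adra1a level was 33.9 CPM (26.4 to 42.9) and in L2/3-Rorb the sorted Adrb1 level was 83.9 (74.8 to 93.8). Sorting, mouse and library cannot be told apart in these values.

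Whether receptor levels differed between neurons with and without virus was asked within 4 subtypes, comparing neurons with 5 or more UMIs of the viral barcode feature (barcode-high) with neurons at 0 (barcode-zero), in all 4 libraries. The matrices hold 1 such feature, so the 5 targets were not separated. Barcode-high neurons were deeper, with medians of 24582 to 38604 UMIs against 21684 to 30096.5 in L6-Syt6.

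In L6-Syt6 no member was called of 5 tested, against 1.67% of all genes. Adrb1 stood at 13.8, 15.8, 12.8 and, in the sorted library, 13.7 CPM in barcode-high neurons and at 10.1, 9.72, 10.2 and 13.0 CPM in barcode-zero neurons. It was higher in 4 of 4 libraries, the groups overlapped only through the sorted barcode-zero value, and the log2 fold change of 0.48 (SE 0.10, edgeR adjusted p = 0.0230) was under the size limit. Without the sorted library it was 0.53 at an adjusted p of 1.74e-05 and passed, in a range of 1.74e-05 to 0.156 over 10 alternatives. Of the 5 tested members only Adrb1 had an unadjusted p under 0.05. Markers of other cells also differed between these groups: the summed level of the mural cell markers was 28.2 ± 5.24 CPM in barcode-zero and 10.0 ± 2.31 in barcode-high neurons, and that of the astrocyte markers was 1377 ± 314 against 991 ± 114 CPM (n = 4). Their part in the result was not tested.

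In L5-S100b, Adra1a was the 1 called member of 4 tested, against 2.7% of all genes. It stood at 4.24, 2.39, 2.83 and 4.69 CPM in barcode-high neurons and at 9.05, 8.64, 7.74 and 16.7 CPM in barcode-zero neurons, without overlap. This is a log2 difference of −1.50 (SE 0.31, edgeR adjusted p = 0.00152), lower in 4 of 4 libraries. The barcode-zero groups held 74, 43, 54 and 24 cells. Without library as a block the adjusted p was 0.0792, in a range of 0.000270 to 0.0792 over 10 alternatives, and within cells of 15000 to 35000 UMIs the log2 fold change was −1.46 (adjusted p = 0.00931). The barcode-zero cells also differed in subtype markers: S100b was 27.6 ± 15.1 CPM against 56.9 ± 6.43 in barcode-high cells, Bcl6 8.25 ± 3.86 against 3.55 ± 0.71 and Calb1 14.0 ± 6.29 against 6.44 ± 1.25 (n = 4). The summed astrocyte markers were at 406 to 604 CPM in barcode-zero and 612 to 817 CPM in barcode-high cells, and the part of these markers in the result was not tested. Adra1b was at 0.48 in this subtype (edgeR adjusted p = 0.238), higher in 3 of 4 libraries.

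In L6-Npy no member was called of 4 tested, against 0.801% of all genes. Adra1b stood at 27.1, 26.6, 30.6 and 25.3 CPM in barcode-high and at 12.5, 15.5, 21.7 and 21.3 CPM in barcode-zero neurons. The groups did not overlap and the log2 fold change was 0.63 (SE 0.17), higher in 4 of 4 libraries, with an edgeR adjusted p of 0.0535. It passed without the filter on low counts (adjusted p = 0.0180) and without the sorted library (0.0354), in a range of 0.0180 to 0.885 over 9 alternatives. The summed astrocyte markers were 95.1 ± 24.3 CPM in barcode-zero and 135 ± 7.18 in barcode-high neurons, and Npy, the gene in the name of the subtype, was 253 ± 65.3 against 186 ± 57.0 CPM (n = 4), and their part in the result was not tested. In L2/3-Rorb no member was called of 3 tested, against 0.139% of all genes, and Adra1b (0.24), Adrb1 (0.24) and Adra2c (−0.10) had unadjusted p of 0.125, 0.101 and 0.691 in the edgeR fit. Of the 57 pathway genes, 49 were tested in each subtype, and the 1 call was Hcn2 in L5-S100b, at 41.7 ± 5.29 CPM in barcode-high and 30.4 ± 3.41 CPM in barcode-zero neurons (log2 fold change 0.51, edgeR adjusted p = 0.0190).

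The barcode difference was also compared between subtypes in 1 edgeR fit. Against L6-Syt6 it differed for 1 of 5 members in L5-S100b (Adra1a), for 1 of 5 in L6-Npy (Adra1b) and for 0 of 5 in L2/3-Rorb, where 3.01%, 1.53% and 0.736% of all genes were called. Neither call held in every alternative. Without library as a block the edgeR adjusted p was 0.0538 for Adra1a and 0.239 for Adra1b.

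**Figure D4:**
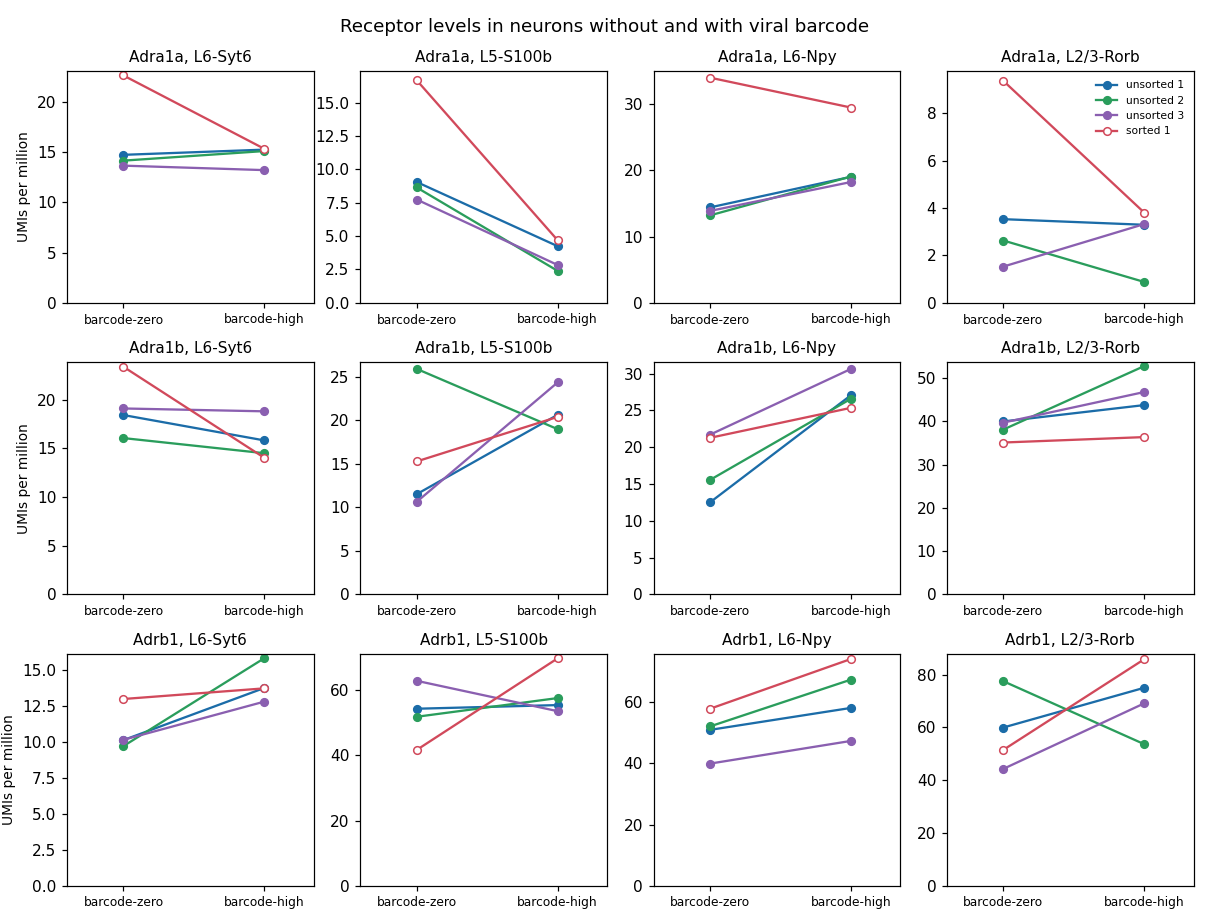
Level in CPM (vertical axis, linear, its own range in each panel) of Adra1a, Adra1b and Adrb1 in barcode-zero and barcode-high neurons of 4 subtypes. Each line joins the 2 groups of 1 library, and open points are the sorted library. Adra1a in L5-S100b lies at 7.74 to 16.7 in barcode-zero and at 2.39 to 4.69 in barcode-high neurons.

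The genes with the subtype pattern most like each member were found by the Pearson correlation of log2(CPM + 1) over the 21 sums, which share libraries and depth. Adrb1 was matched most closely by Tmem178b (r = 0.98), Ntm (r = 0.97) and Gm26917 (r = 0.96). Adra2c was matched by Man1a, Chst2 and Snn (r = 0.96 to 0.95), and Adra1b by Trnp1, Add3 and Onecut2 (r = 0.94 to 0.90). Adra1a was matched by Cabp7, Mapk8ip2 and Slc16a1 (r = 0.93 to 0.89) and Adra2a by Glrx3 (r = 0.87) and Stmn4 (r = 0.86), among others. For Adra1d the highest were Col26a1, AI593442 and Snapc5 (r = 0.86 to 0.81), on 19 UMIs.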

How the data were processed

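Single-cell 3' libraries of dissected vmPFC were analysed as deposited. The authors made UMI count matrices with Cell Ranger against a mouse reference. Per the methods of the study, the 5 projection barcodes were added to it as genes of their own (the matrices used here list 1 added feature, named barcode). Neuron subtypes were named in a metadata file. By the same methods, the data were prepared in Seurat (3.1.4) and clustered with the Leiden algorithm in Scanpy. Similar clusters were then merged and annotated by hand. Depth was 83039497 to 87809114 UMIs in 8040, 7443 and 7243 cell barcodes of the unsorted libraries and 54728191 in 2075 of the sorted one. For cells outside the metadata the limits were 500 and 8000 genes, 1000 and 60000 UMIs, and a mitochondrial share below 20%. No doublet caller was run. Instead 1446 cells that met the limits of more than 1 class were left out of the classes, 887 of them endothelial and mural only, and cells with 4 or more Slc17a7 UMIs were left out in an alternative. Of 24801 cell barcodes, 82 sequences occurred in more than 1 library.

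Sums of the deposited counts were taken over the cells of a group in each library, with the viral feature left out of totals. Percent of cells with a UMI was computed here from the deposited counts. Sums were tested with edgeR 4.0.16 (R 4.3.3, TMM factors, filterByExpr, library as block), and DESeq2 1.42.0 was the alternative. Adjusted p-values are Benjamini-Hochberg values over all genes tested. Both sums of a library come from the same mouse or pool, which is where the pairing comes from, and the correlation of their deviations ran from 0.0170 to 0.740, over 0.1 in 22 of 34 pairs. The unsorted libraries are 1 mouse each. The edgeR step was tested on simulated data. Positions are from GENCODE vM21 (GRCm38).

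The members, the gene lists and the barcode limits were chosen with earlier results of these data known. Named genes are the members, the other adrenergic receptors, up to 3 called pathway genes per direction and comparison that moved the same way in every library, and the 3 genes most alike to each member. Some genes that this rule names are not reported here. The inhibitory groups were set by 10 or more UMIs of Sst, or 4 or more of Vip, Lamp5 or Pvalb. Alternatives covered the tool, scaling, count filter, block, libraries left out, cell limits and depth, and those on whole cells of 15000 to 35000 UMIs, on the class rule without other limits and on the difference between subtypes were added after seeing the data.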

Additional observations from a re-analysis of the deposited data

Results flagged for a closer look

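The difference between barcode-high and barcode-zero neurons was compared between subtypes in 1 edgeR quasi-likelihood fit, taking L6-Syt6 as the reference, and differed for 2 members. For Adra1a the log2 fold change in L5-S100b was lower than that in L6-Syt6 by −1.47 (SE 0.32, edgeR adjusted p = 0.00750), against 3.01% of all genes called in the same test. Adra1a was −1.50 in L5-S100b, lower in 4 of 4 libraries, and −0.02 in L6-Syt6, lower in 2 of 4. Without library as a block it was −1.45 (adjusted p = 0.0538). Without unsorted replicate 2 the difference was −1.33 with an adjusted p of 0.0745, in a range of 0.00543 to 0.0745 over 5 alternatives.

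For Adra1b the log2 fold change in L6-Npy exceeded that in L6-Syt6 by 0.80 (SE 0.21, edgeR adjusted p = 0.0415), against 1.53% of all genes. Adra1b was 0.63 in L6-Npy, higher in 4 of 4 libraries, and −0.17 in L6-Syt6, lower in 4 of 4. It did not pass without unsorted replicate 1, 2 or 3 (adjusted p of 0.244, 0.204 and 0.0876), and passed without the sorted library (0.00791).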

How the results depend on the processing

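The highest group of all 6 members was kept in every alternative on levels. For Adra1d this says little, since its highest subtype reached 0.556 CPM and its order over subtypes was not detectable. Of the values for single members, 478 kept their direction and call, 14 turned sign, and 10 gained and 10 lost a call. The number of members called by barcode moved in L6-Syt6 from 0 to 1 without the sorted library, in L6-Npy from 0 to 1 without the sorted library and to 1 with no filter on low counts, and in L5-S100b from 1 to 0 with no replicate block and to between 1 and 2 with 1 library left out (2 without unsorted replicate 2, when Adra1b passed). For the difference between subtypes it moved from 2 to 0 with no replicate block and to between 0 and 3 with 1 library left out. Dropping the block changed no other call of a member. With 1 library left out, signs turned for Adra2a in inhibitory neurons (−0.16 to 0.23), Adra1b in astrocytes (−0.46 to 0.020), Adra2a in the L2/3 pair (−0.999 to 0.27) and Adra2c by barcode in L2/3-Rorb (−0.23 to 0.23). For the difference between subtypes, without 1 unsorted library, they turned for Adra2a in L5-S100b (−0.24 to 0.028) and in L6-Npy (−0.31 to 0.059). In L2/3-Rorb they turned for Adra2c (−0.18 to 0.35) and Adrb1 (−0.40 to 0.16). Without the sorted library the Adra2a difference from L6-Syt6 was 1.27 (SE 1.27) in L5-S100b and −0.36 (SE 0.44) in L6-Npy. By barcode in L6-Syt6, Adra1a turned to 0.064 without the sorted library and 0.044 in cells of 15000 to 35000 UMIs, Adra1b to 0.066 and Adra2c to 0.041 at 1 or more barcode UMIs, and Adra2c to 0.0031 in cells of 15000 to 35000 UMIs. In astrocytes Adrb1 was called lower in 4 alternatives, and Adra1b was called lower (−0.70) and Adra2a lost its call (0.56, adjusted p = 0.0733) when cells that met a further class limit were kept. The cause was not tested. Genes called over the whole table fell from 2475 to 1625 with DESeq2 in the L2/3 pair. By barcode they were 218 in L6-Syt6 (75 with no block, 27 at 1 or more UMIs, 28 to 309 with 1 library left out: 78, 28 and 77 without unsorted replicate 1, 2 or 3), 310 in L5-S100b (142 with DESeq2, 56 with no block, 202 at 1 or more UMIs, 178 without unsorted replicate 2), 83 in L6-Npy (11 with DESeq2, 31 at 1 or more UMIs, 45 without unsorted replicate 3, and 0 with no block, where edgeR gave 406 genes an unadjusted p under 0.05) and 14 in L2/3-Rorb (0 with DESeq2, with 132 genes under 0.05, 0 with no block, with 285, 28 with no filter on low counts, 6 at 1 or more UMIs and 6 in cells of 15000 to 35000 UMIs, 2 without unsorted replicate 1 and 33 without unsorted replicate 2). For the difference from L6-Syt6 they were 386 in L5-S100b (76 with no block, 186 to 515 with 1 library left out), 177 in L6-Npy (2 with no block, 43 to 243) and 86 in L2/3-Rorb (8 with no block, 27 to 125), with the lowest counts without unsorted replicate 2, 2 and 1 and the highest without the sorted library.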
